A study of Homo sapiens with 6 samples.

Results

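Mitochondrial ribosomal protein (MRP) genes were followed in HEK293T cells, an established human embryonic kidney line, with and without THUMPD2, a methyltransferase for U6, the small nuclear RNA of the spliceosome. Members were the rows of the deposited count table whose symbol is MRPL or MRPS, a number and an optional letter A to C, and whose reads summed to 30 or more over the 6 libraries. That rule gave 56 rows of 78 with such a symbol and of 59087 in the table, 35 of them for the large and 21 for the small subunit. Just inside the threshold stood MRPL15 with 30 reads and MRPS10 with 31, and just outside it MRPL23 with 29 and MRPL58 with 28. The 22 rows below it included 3 with no read at all, MRPL12, MRPL45 and MRPL53. Total RNA was sequenced from the THUMPD2 knockout line KO1, the THUMPD2 knockout line KO2 and the wild type (WT), with 2 libraries each, and all were untreated as far as the labels say. Only 1 WT line was used, so the knockout and other differences between the cell lines cannot be told apart. No label says that the 2 libraries of a group are from separate cultures, so each p-value reflects the spread between libraries alone, which may be technical.

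Mitochondrial ribosomes are built from ribosomal RNAs encoded by the mitochondrial genome and from proteins that are all encoded in the nucleus, made in the cytosol and imported. Proteins named MRPS belong to the small subunit, which decodes the messenger RNA, and those named MRPL to the large subunit, which forms the peptide bonds. The particle translates the few mitochondrially encoded messengers, all for subunits of the respiratory chain and the ATP synthase. Some members have bacterial relatives, among them MRPS12, MRPL19 and MRPL34, and others, such as MRPS22, MRPS34 and MRPL43, do not.

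Libraries held between 7414339 and 8391143 reads, and the 56 members took 0.106% of all reads. The edgeR quasi-likelihood test was fitted on 14184 rows that passed a filter on low counts, and 45 members passed it, 29 of the large and 16 of the small subunit. Another 11 were too low to test, namely MRPL10, MRPL11, MRPL15, MRPL21, MRPL24, MRPL39, MRPS9, MRPS10, MRPS28, MRPS33 and MRPS35. The THUMPD2 row held 0 to 3 reads per library, so the target did not check the genotype labels. Rows of kidney tubule and podocyte markers held at most 12 reads in any library, and the renal lineage factors PAX2 and PAX8 at most 5 and 16. Of 3 genes known from HEK293 lines, NEFM held 7 and 3 reads in KO1, 229 and 186 in KO2, and 37 and 23 in WT, NEFL held 9 to 70 reads in all libraries, and VIM 296 to 692. The rows opposite to NEFM and VIM, AF106564.1 and VIM-AS1, averaged 2446 and 32592.

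As in the table as a whole, most reads of the MRP family were in rows whose exons lie over exons of a gene on the opposite strand. Exons of 23 members shared at least 100 bases with exons of an opposite-strand gene in GENCODE 29 on GRCh38. These 23 had a median of 162 reads per library (range 8.17 to 1165) and held 83.4% of the reads of all 78 MRP rows. The other 33 had a median of 12.8 reads, and 4 of the 21 members with a mean of at least 50 reads were among them. Among all rows placed on the annotation, those with at least 100 shared bases were 17.4% of rows and held 87.4% of reads. Among placed rows with a summed count of 30 or more, the threshold used for members, they were 42.7% of rows. With a minimum of 1 shared base the class of members held 25 members, and with 300 bases 12. Libraries were made with a directional kit, the strand setting of the counting is not given in the sources used here, and from which of the paired genes the reads of a row came was not tested. A change is therefore given for the row that carries a symbol and not for the gene.

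**Figure D1:**
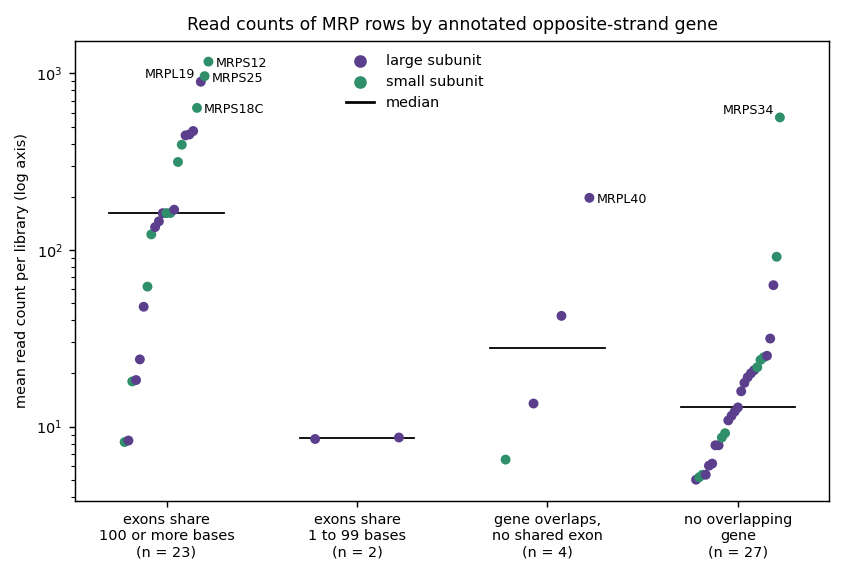
Mean read count per library (log axis) of the 56 MRP rows, split by what GENCODE annotates on the opposite strand, with purple points for the large subunit, green points for the small subunit and a black line at the median of each class. The class with 100 or more shared exonic bases has a median of 162 reads and the class with no overlapping gene 12.8, where MRPS34 at 562.8 reads is the highest.

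The pairs joined MRP genes to genes of many kinds. In the large subunit, MRPL43 shared 1170 exonic bases with SEMA4G, a semaphorin gene, and 149 with TWNK, which encodes the helicase of mitochondrial DNA. MRPL4 shared 560 with AC011511.2 and 309 with AC011511.3. MRPL51 shared 486 bases with NCAPD2, a condensin subunit. MRPL2 shared 373 with KLC4, a kinesin light chain. MRPL49 shared 356 with SYVN1, a ubiquitin ligase of the endoplasmic reticulum, and 282 with FAU. MRPL9 shared 333 with OAZ3 and 269 with AL589765.7. Shorter stretches joined MRPL34 to ABHD8 (223 bases), MRPL37 to CYB5RL (140) and AL357673.1 (105), MRPL20 to AL391244.1 (139), MRPL19 to GCFC2 (132), MRPL47 to ACTL6A, a chromatin remodelling subunit (124), and MRPL11 to PELI3 (119).

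In the small subunit, MRPS18C shared 1956 bases with ABRAXAS1, a scaffold of the BRCA1-A complex, and MRPS25 shared 1197 with NR2C2, a nuclear receptor. MRPS11 shared 516 with AC013489.3, MRPS16 395 with DNAJC9-AS1 and MRPS14 351 with CACYBP. MRPS12 shared 349 bases with SARS2, the mitochondrial seryl-tRNA synthetase. MRPS22 shared 290 bases with PRR23A and 86 with COPB2, a coatomer subunit. MRPS2 shared 250 with AL161452.1 and 104 with C9orf116, and MRPS7 213 with GGA3 and 146 with MIF4GD. MRPS27 shared 190 with PTCD2, and MRPS9 170 with UTAT33. MRPL32 shared only 24 bases with PSMA2 and MRPL13 only 3 with MTBP. For 4 more members the opposite gene met introns only: TMEM63B for MRPL14, HIRA and C22orf39 for MRPL40, RN7SKP243 and CCDC58P5 for MRPL48, and AC036214.4 for MRPS28. No gene overlapped the last 27. Among these MRPS34 was the most abundant with 562.8 reads, and EME2 starts 52 bases from it in a head-to-head arrangement.

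Rows of the opposite-strand genes were set beside the MRP rows. Such a row was paired with an MRP gene if it shared 100 or more exonic bases with it, being 80% or more of all bases it shared with the opposite strand. That gave 25 rows over 20 MRP genes, and 18 of them held more reads than the MRP row. AL161452.1, over MRPS2, averaged 12943 reads, 41.1 times the MRPS2 row. AC011511.2, over MRPL4, averaged 7979, 167 times the MRPL4 row. RSPH9, a radial spoke gene over MRPS18A, averaged 4352 reads, 1004 times the MRPS18A row, which was not a member. The order was the other way for 7 pairs. SARS2 averaged 31.3 reads, 0.0269 times the MRPS12 row, and CYB5RL 1.5 reads against 471.5 of MRPL37. Of the 9 rows that met the 5′ end of their MRP gene, 6 held fewer reads than the MRP row and 3, GGA3, TWNK and NCAPD2, held more. Of the 11 that met the 3′ end, 10 held more and AL391244.1, over MRPL20, held fewer.

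**Figure D2:**
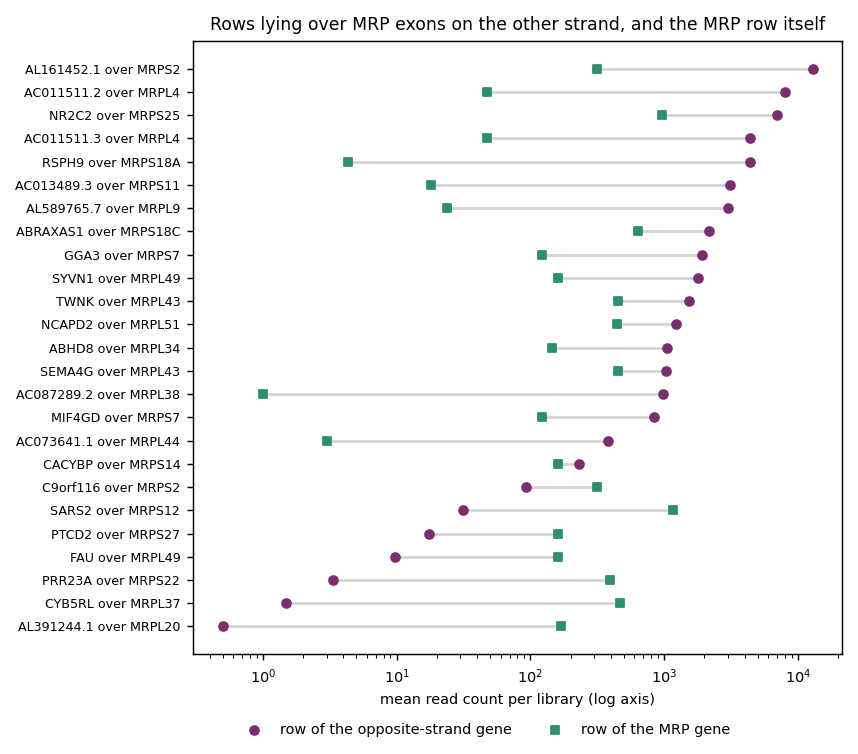
Mean read count per library (log axis) of 25 rows lying over MRP exons on the other strand (purple circles) and of the MRP row itself (green squares), with a grey line joining each pair. The circle lies right of the square in 18 pairs and left of it in 7, from RSPH9 over MRPS18A with a ratio of 1004 to AL391244.1 over MRPL20 with a ratio of 0.00296.

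The 5 most abundant rows held 50.8% of the members' reads, in the order MRPS12, MRPS25, MRPL19, MRPS18C and MRPS34. MRPS12, a protein of the decoding centre, held 1190 and 1056 reads in KO1, 1187 and 1280 in KO2, and 1167 and 1110 in WT. Its libraries overlapped between the groups, and neither line passed, with a log2 fold change of 0.06 ± 0.07 (SE) in KO1 and −0.02 ± 0.07 in KO2. Levels per length could be compared for the 32 members with a deposited FPKM, which divides the count by the gene size in that table and by 1 factor per library. The highest were MRPL37 with 234.6 ± 16.5 FPKM (mean ± SD, n = 6), MRPS25 with 219.9 ± 30.4, MRPS22 with 172.5 ± 59.2 and MRPL19 with 137.5 ± 14.7. Below them came MRPL43 with 130.6 ± 52.1, MRPL34 with 75.6 ± 21.9, MRPS12 with 70.3 ± 3.66 and MRPS34 with 65.4 ± 15.99 FPKM, and the median of the 32 was 12.9. The SD over 6 libraries includes the differences between the groups, and the order changed with the group. MRPL37 averaged 229.8 ± 13.7 FPKM in KO1, 229.2 ± 21.5 in KO2 and 244.9 ± 19.9 in WT (SD, n = 2 each). MRPS22 averaged 98.3 ± 17.98 in KO1, 220.6 ± 3.96 in KO2 and 198.6 ± 13.1 in WT, MRPL19 150.5 ± 2.73, 142.7 ± 2.59 and 119.3 ± 0.605, and MRPL43 106.3 ± 8.61, 88.7 ± 4.47 and 196.8 ± 2.31. MRPS22 and MRPL43 thus lay below MRPL19 in KO1 and above it in WT. The gene size was 260 bases for MRPL37, 290 for MRPS22 and 447 for MRPL43, against 2549, 5382 and 3573 annotated exonic bases, and for 16 of the 32 it was under 50% of the annotation, so the order per length rests on those sizes. MRPL37, another large-subunit protein without a bacterial relative, held 423 and 434 reads in KO1, 512 and 473 in KO2, and 504 and 483 in WT, and was not called in either line.

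In KO1 against WT, 1 MRP row rose and 7 fell, which is 17.8% of the 45 tested, where 23.6% of all tested rows were called (10.4% higher and 13.3% lower). In KO2 against WT, 5 rose and 5 fell, 22.2% of the 45, against a background of 29.0% (13.6% higher and 15.4% lower). Both lines shared 5 calls in 1 direction, MRPL19 higher and MRPL20, MRPL34, MRPL43 and MRPS18C lower, which is 11.1% where 13.5% of all rows were (5.79% higher and 7.72% lower), and both comparisons use the same WT libraries. Calls are those of the edgeR quasi-likelihood test with a Benjamini-Hochberg adjusted p under 0.05 over all tested rows. In bulk libraries fewer cells with a transcript and fewer transcripts per cell cannot be told apart. The median log2 fold change of the 45 rows was 0.05 in KO1 and 0.24 in KO2, beside 0.01 and 0.02 over all tested rows. For the 21 rows with 100 or more shared bases it was −0.07 in KO1 and 0.06 in KO2. For the 24 with fewer it was 0.21 and 0.41. Calls depended on depth: among the 21 members with a mean of at least 50 reads, 8 were called in KO1 (38.1%, against 39.1% of all such rows) and 9 in KO2 (42.9%, against 47.0%). At that depth 5 of the 21 were called in both lines (23.8%), as were 23.8% of all such rows (9.57% higher and 14.2% lower).

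These counts moved when single libraries were left out or bin medians were taken off. In KO1, 4 falls were called without KO1 library 2 and 4 without WT library 2, in place of 7. The KO2 calls were 3 falls without KO2 library 1, and 3 rises and 3 falls without WT library 2. Falls called in both lines numbered 2 without KO2 library 1 and 1 without WT library 2, in place of 4, and the shared rise was lost without any 1 KO2 or WT library. Medians of 10 Mb bins of the genome were then taken off, as a measure of how neighbouring rows moved. 9 of the tested members, MRPS18C among them, had too few rows in their bin for a median and were left out. Of the 36 others, 6 fell in KO1, 4 in KO2 and 3 in both lines without the offset, and 3, 1 and 1 with it.

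**Figure D3:**
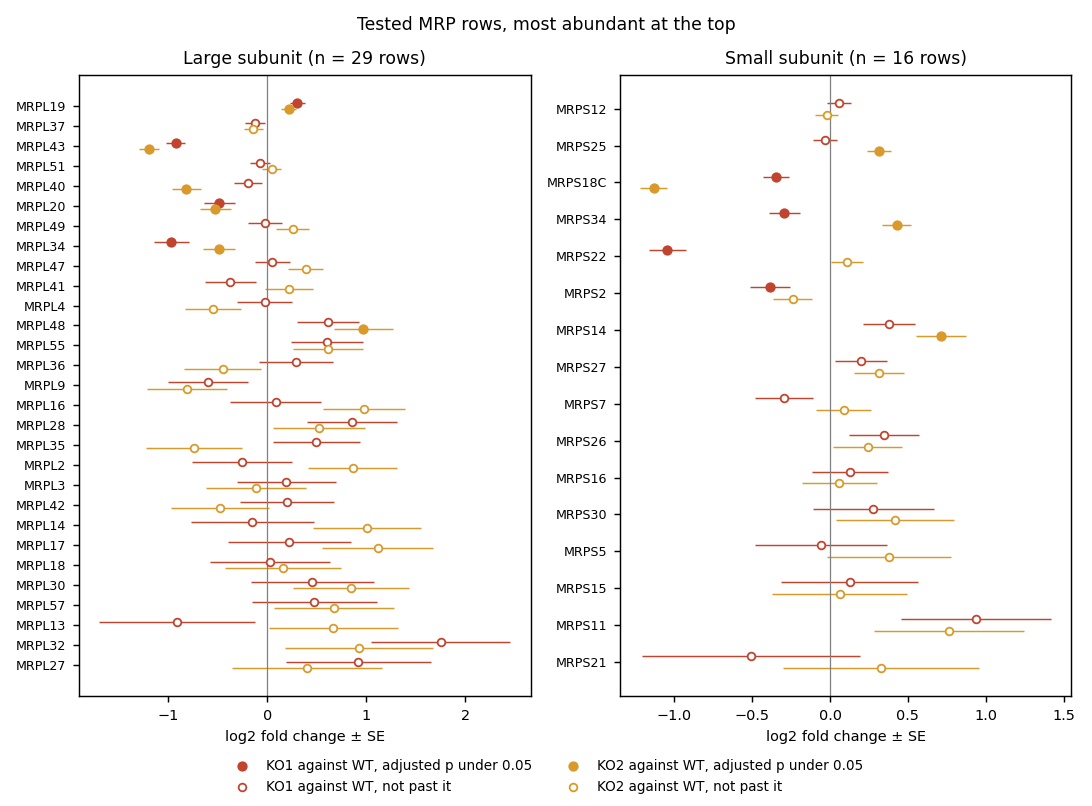
Log2 fold change ± SE (2 libraries against 2) of the 45 tested MRP rows in KO1 (red) and KO2 (yellow) against WT, large subunit on the left and small subunit on the right, ordered by mean count with the most abundant row at the top. Filled points passed a Benjamini-Hochberg adjusted p under 0.05, and most of them lie in the upper part of each panel, where the SE is small.

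MRPL43, a large-subunit protein (chr10:100969458-100987515, minus strand), fell in both lines and kept both calls in each of 14 alternatives. Its row held 331 and 350 reads in KO1, 308 and 349 in KO2, and 664 and 702 in WT. All 4 knockout libraries lay below both WT libraries. That is 1.90-fold lower in KO1 (log2 fold change −0.92 ± 0.10, adjusted p = 1.5e-09) and 2.28-fold lower in KO2 (−1.19 ± 0.10, adjusted p = 2.6e-12). Other rows of the same 10 Mb of chromosome 10 were low as well, with medians of −0.50 in KO1 and −0.49 in KO2 over 39 rows. With those medians taken off, MRPL43 remained called at −0.42 and −0.70. Of the rows over MRPL43, TWNK fell by 0.32 ± 0.07 in KO1 and 0.60 ± 0.07 in KO2. SEMA4G fell by 0.20 ± 0.07 in KO1, beside −0.03 ± 0.07 in KO2, and both values lay above the medians of that bin. With the medians taken off, TWNK stood at 0.19 in KO1, called in the other direction, and at −0.11 in KO2, not called.

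MRPS18C is one of the MRPS18 paralogs of the small subunit (chr4:83455932-83469735, plus strand), and its row fell in both lines, further in KO2. It held 634 and 633 reads in KO1, 435 and 417 in KO2, and 789 and 916 in WT. The 3 groups did not overlap, and KO2 was the lowest. The fall was 1.27-fold in KO1 (−0.35 ± 0.08, adjusted p = 0.0019) and 2.19-fold in KO2 (−1.13 ± 0.09, adjusted p = 7.2e-13). Without WT library 2 the KO1 change was −0.29 and no longer called. ABRAXAS1, which lies over its 3′ end, was at 0.00 ± 0.07 in KO1 and fell by 0.56 ± 0.07 in KO2. Too few rows lay in that 10 Mb bin to give its median.

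MRPL34, a large-subunit protein with a bacterial relative (chr19:17292609-17306843, plus strand), held 107 and 79 reads in KO1, 148 and 153 in KO2, and 183 and 201 in WT. KO1 was the lowest group and none overlapped. The row fell by 0.97 ± 0.18 in KO1 (adjusted p = 4.9e-05) and by 0.48 ± 0.17 in KO2 (adjusted p = 0.024). The KO2 call ended without any single KO2 or WT library, at −0.49 and −0.47 without KO2 library 1 and 2 and at −0.50 and −0.47 without WT library 1 and 2. It also ended with the bin median taken off (−0.43) and by DESeq2 (−0.50). ABHD8, the row over MRPL34, was at −0.03 ± 0.07 in KO1 and fell by 0.35 ± 0.07 in KO2.

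MRPL20, a large-subunit protein related to bacterial L20 (chr1:1401908-1407313, minus strand), held 142 and 139 reads in KO1, 149 and 168 in KO2, and 177 and 239 in WT. The knockout libraries lay below WT, while the WT libraries themselves stood apart. The row fell by 0.48 ± 0.16 in KO1 (adjusted p = 0.023) and 0.52 ± 0.16 in KO2 (adjusted p = 0.0097). Rows of its 10 Mb bin, at the end of chromosome 1, had medians of −0.48 in KO1 and −0.40 in KO2. With these taken off MRPL20 stood at −0.01 and −0.13 and was not called. Without WT library 2 neither call held (−0.31 in KO1 and −0.35 in KO2). The KO1 call also ended without KO1 library 1 (−0.46) or 2 (−0.51), with upper-quartile factors (−0.40) and by DESeq2 (−0.48), and the KO2 call without KO2 library 1 (−0.47).

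MRPL19, another large-subunit protein with a bacterial relative (chr2:75646783-75690851, plus strand), was the 1 row higher in both lines. It held 950 and 873 reads in KO1, 957 and 1036 in KO2, and 750 and 812 in WT, and all knockout libraries lay above WT. The rise was 1.23-fold in KO1 (0.30 ± 0.08, adjusted p = 0.0027) and 1.16-fold in KO2 (0.22 ± 0.08, adjusted p = 0.027). The KO2 call ended without KO2 library 1 (0.25) or 2 (0.20), without WT library 1 (0.21) or 2 (0.22), by DESeq2 (0.21) and with no filter on low counts (0.20). With the bin offset it stood at 0.38 and was called. GCFC2, over the 3′ end of MRPL19, averaged 2754.5 reads, 3.07 times the MRPL19 row. The bases it shares with MRPL19 are 47.3% of its overlap, under the minimum for a pair, and its change is not given.

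**Figure D4:**
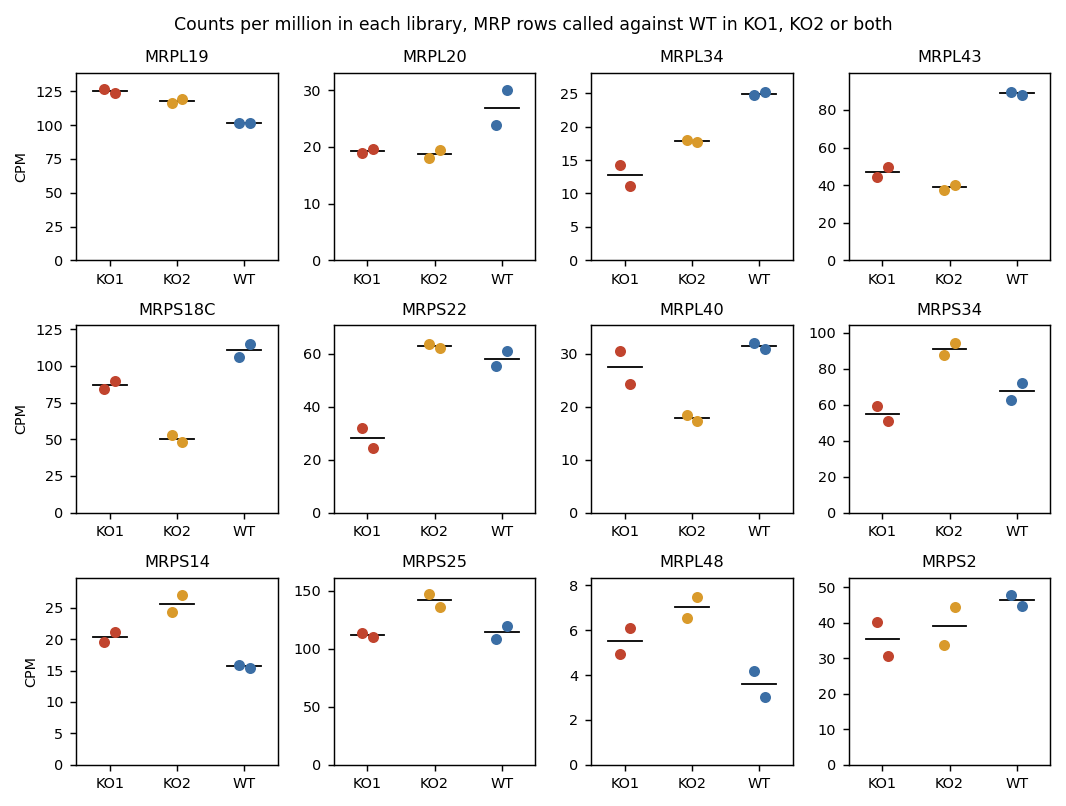
CPM (reads scaled by the TMM effective library size, linear axis from 0) in each library of the 12 MRP rows called against WT in KO1, KO2 or both, with a black bar at the group mean (n = 2 each). MRPL43 lies at 44.2 and 49.5 CPM in KO1, 37.4 and 40.3 in KO2, and 89.6 and 88.0 in WT, while MRPS34 lies below WT in KO1 and above it in KO2.

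Promoters of MRPL43, MRPS18C and MRPS22 are shown because these rows had the largest falls that held in each alternative of at least 1 comparison. Each is the 250 bases before the annotated start, from RefSeq on GRCh38.p14, in lower case 5′ to 3′ on the gene's strand, with capitals on CCGGAA, the core of ETS-family binding sites, or its complement TTCCGG. The windows are chr10:100987498-100987747 (minus strand), chr4:83455808-83456057 (plus strand) and chr3:139343744-139343993 (plus strand, the first of its annotated starts), in that order. The MRPL43 window lies inside TWNK, which starts at 100987367 on the other strand.
MRPL43: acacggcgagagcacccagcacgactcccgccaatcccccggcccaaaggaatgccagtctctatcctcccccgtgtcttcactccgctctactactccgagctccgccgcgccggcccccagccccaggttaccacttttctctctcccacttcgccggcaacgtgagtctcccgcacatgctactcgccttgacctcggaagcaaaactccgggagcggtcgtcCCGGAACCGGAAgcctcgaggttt
MRPS18C: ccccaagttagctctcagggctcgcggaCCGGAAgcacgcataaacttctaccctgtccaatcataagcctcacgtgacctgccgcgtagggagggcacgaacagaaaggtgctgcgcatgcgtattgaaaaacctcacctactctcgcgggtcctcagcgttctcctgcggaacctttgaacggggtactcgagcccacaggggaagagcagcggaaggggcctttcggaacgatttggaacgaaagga
MRPS22: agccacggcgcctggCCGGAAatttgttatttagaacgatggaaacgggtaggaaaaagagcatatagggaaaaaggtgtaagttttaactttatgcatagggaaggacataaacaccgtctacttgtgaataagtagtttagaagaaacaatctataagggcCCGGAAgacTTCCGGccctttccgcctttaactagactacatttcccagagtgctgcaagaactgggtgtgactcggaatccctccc
These windows hold 2, 1 and 3 matches. On either strand CCGGAA occurred in 25 of 65 promoters (38.5%) of the 49 members found in that table, against 14.5% of all 35116 promoters. The palindromic NRF1 consensus occurred in 1 of the 65 (1.54%), against 1.03% of all. Among 8 promoters of the 5 rows called in both lines, 4 held CCGGAA. Matches were not confined to rows that fell. Of the rows that rose in KO2, MRPS34 held 3 and MRPL48 2, while MRPL19, MRPS14 and MRPS25 held 0. Windows of MRPL34, which fell in both lines, held 0 or 1. A link between the motif and the changes was not tested.

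MRPS22, a small-subunit protein whose mutations cause a respiratory chain deficiency (chr3:139005806-139357223, plus strand), fell in KO1. Its row held 238 and 173 reads in KO1, 522 and 537 in KO2, and 411 and 485 in WT. KO1 stood clear below both other groups. The change was −1.04 ± 0.12 in KO1 (2.06-fold lower, adjusted p = 5.8e-09) and 0.11 ± 0.10 in KO2, not called. The 10 Mb bin was at −0.54 in KO1 and 0.02 in KO2, and with these taken off the KO1 change was −0.50 and remained called. PRR23A, the row over MRPS22 at the 5′ end annotated in GENCODE (139005806), had 1 to 8 reads per library and was not tested. The RefSeq promoter shown above lies elsewhere, at 139343744-139343993. COPB2, over the 3′ end of MRPS22, averaged 1383.5 reads. It shares 86 bases, under the minimum for a pair, and its change is not given.

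MRPS34, a small-subunit protein linked to Leigh syndrome (chr16:1771890-1773155, minus strand), was called in opposite directions. Its row held 443 and 359 reads in KO1, 719 and 816 in KO2, and 464 and 576 in WT. It fell by 0.29 ± 0.10 in KO1 (adjusted p = 0.025) and rose by 0.43 ± 0.09 in KO2 (adjusted p = 0.0004). The KO2 call held in each of its 14 alternatives. That in KO1 ended without KO1 library 2 (−0.19) or WT library 2 (−0.19), with upper-quartile factors (−0.22), with the bin offset (−0.27) and by DESeq2 (−0.29).

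MRPS2, related to bacterial S2 (chr9:135499984-135504673, plus strand), was at 40.0 and 30.6 CPM in KO1, 33.8 and 44.3 in KO2, and 47.9 and 44.6 in WT. It fell by 0.39 ± 0.13 in KO1 (adjusted p = 0.028) and did not pass in KO2, where the value was −0.24 ± 0.13. The KO1 libraries differed among themselves, and without KO1 library 2 the change was −0.21 and not called, and without KO1 library 1 it was −0.60 and called. It was not called either without WT library 1 (−0.34), with the bin offset (−0.28), with upper-quartile factors (−0.31) or by DESeq2 (−0.38). Without KO2 library 2 the KO2 change was −0.45 and called.

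Rows called in KO2 alone were MRPL40, MRPS14, MRPS25 and MRPL48. MRPL40 lies in the region lost in DiGeorge syndrome (chr22:19431902-19436075, plus strand) and held 229 and 171 reads in KO1, 152 and 149 in KO2, and 237 and 246 in WT. It fell by 0.82 ± 0.15 in KO2 (adjusted p = 3.7e-05) and was at −0.20 ± 0.14 in KO1, not called. Its 10 Mb bin was at −0.52 in KO2 and 0.07 in KO1. With these taken off MRPL40 stood at −0.30 in KO2 and was not called.

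MRPS14, related to bacterial S14 (chr1:175010789-175023425, minus strand), held 147 and 149 reads in KO1, 200 and 234 in KO2, and 118 and 123 in WT. It rose 1.64-fold in KO2 (0.71 ± 0.16, adjusted p = 0.0006) and was at 0.38 ± 0.17 in KO1, not called. With upper-quartile factors (0.45) or on rows with a mean of at least 50 reads (0.41) the KO1 change was called too. CACYBP, the row over MRPS14, passed in neither line (0.35 ± 0.14 in KO1 and 0.14 ± 0.14 in KO2).

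MRPS25, a small-subunit protein without a bacterial relative (chr3:15042460-15065335, minus strand), held 851 and 777 reads in KO1, 1214 and 1182 in KO2, and 807 and 954 in WT. KO2 lay above both other groups, and KO1 overlapped WT. The row rose 1.24-fold in KO2 (0.31 ± 0.08, adjusted p = 0.0016), a call that ended without WT library 1 (0.24), and was at −0.03 ± 0.08 in KO1. NR2C2, the row over the 3′ end of MRPS25, went the other way and fell by 0.25 ± 0.06 in KO1 and 0.40 ± 0.06 in KO2.

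MRPL48, a large-subunit protein (chr11:73787316-73865133, plus strand), was the least abundant row called, with 37 and 43 reads in KO1, 54 and 65 in KO2, and 31 and 24 in WT. It rose 1.96-fold in KO2 (0.97 ± 0.30, adjusted p = 0.011) and was at 0.62 ± 0.31 in KO1, not called. The KO2 call ended without KO2 library 2 (0.88) or WT library 2 (0.75) and by DESeq2 (0.96). The 33 tested members called in neither line included MRPS12 and MRPL37 among the abundant ones. Precision was limited by depth. Over the 37 tested members not called in KO1 and the 35 not called in KO2, the median SE of the log2 fold change was 0.41. Values of these rows ran from −0.91 to 1.75 in KO1 and from −0.81 to 1.12 in KO2.

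The lines were also compared directly. Of the 45 rows, 2 were higher and 3 lower in KO1 than in KO2, 11.1% against a background of 20.4% (10.1% higher and 10.3% lower), or 5 of 21 (23.8%) against 35.7% at a mean of at least 50 reads. MRPS18C (0.79 ± 0.09, adjusted p = 1.2e-08) and MRPL40 (0.62 ± 0.15, adjusted p = 0.0022) were the 2 higher in KO1. MRPS22 (−1.15 ± 0.11, adjusted p = 6.6e-10), MRPS34 (−0.72 ± 0.10, adjusted p = 2.3e-07) and MRPS25 (−0.34 ± 0.08, adjusted p = 0.00086) were the 3 lower. The large-subunit rows that fell in both lines did not pass between them, at −0.48 ± 0.18 for MRPL34 (adjusted p = 0.053) and 0.27 ± 0.10 for MRPL43 (adjusted p = 0.063). MRPL34 was called on rows with a mean of at least 50 reads (−0.50) and without KO1 library 1 (−0.67), and MRPL43 with RLE factors (0.28), with upper-quartile factors (0.31) and without KO1 library 1 (0.35). With the bin medians taken off, MRPL40 stood at 0.03 and was not called, and MRPS22 at −0.60 and still called. The MRPL40 call also ended without KO1 library 1 (0.44). Without KO1 library 1, or without KO2 library 2, 5 rows were lower.

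The rows over MRP genes were tested in the same fit. Of 22 tested rows, over 17 MRP genes, 1 rose and 12 fell in KO2, with the falls over 10 MRP genes, and 54.5% were lower against a background of 15.4%. Among the 19 with a mean of at least 50 reads, 12 fell (63.2%, against 27.6% of all such rows), and among the 14 with a mean of at least 1000 reads, 10 fell (71.4%, against 41.3%). In KO1, 1 rose and 6 fell (27.3% lower, against 13.3%, and 31.6% against 22.3% at a mean of at least 50 reads). Both lines shared 5 falls, in GGA3, MIF4GD, NR2C2, SYVN1 and TWNK (22.7%, against 7.72%), and no shared rise by edgeR, by DESeq2 or at an unadjusted p under 0.05 in both. Among the 19 with a mean of at least 50 reads the shared falls were 26.3%, against 14.2% of all such rows. Without KO1 library 1 the shared falls were 3, without KO1 library 2 they were 8. ABRAXAS1, AC073641.1 and CACYBP had no bin median. Of the 19 others, 6 fell in KO1, 11 in KO2 and 5 in both lines without the bin offset, and 1, 8 and 1 with it. No test of the list against other rows was made.

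Among the most abundant of these rows, AL161452.1 over MRPS2 held 12919 and 13199 reads in KO1, 11967 and 12497 in KO2, and 13100 and 13975 in WT. It fell by 0.28 ± 0.05 in KO2 (adjusted p = 4.3e-05) and was at 0.03 ± 0.05 in KO1. AC011511.2 over MRPL4 held 7567 and 7777 reads in KO1, 7199 and 7508 in KO2, and 8732 and 9092 in WT, and fell by 0.41 ± 0.06 in KO2 (adjusted p = 2.3e-07). AC011511.3, also over MRPL4, fell by 0.31 ± 0.06 in KO2. In KO1 these 2 were at −0.14 ± 0.06 and −0.10 ± 0.06, not called, and without KO1 library 2 both were called, at −0.20 and −0.15.

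NR2C2 over MRPS25 held 6734 and 6037 reads in KO1, 6445 and 6886 in KO2, and 7814 and 8213 in WT, with both lines below WT. AL589765.7 over MRPL9 fell by 0.19 ± 0.07 in KO2 (adjusted p = 0.029), a call that ended without either KO2 library (−0.22 and −0.14) or WT library 1 (−0.11), with upper-quartile factors (−0.15) and on rows with a mean of at least 50 reads (−0.13). With the bin offset it was called at −0.33. RSPH9 over MRPS18A passed in neither line (−0.08 ± 0.07 in KO1 and −0.16 ± 0.07 in KO2). Its KO2 change was called with RLE factors (−0.17), with no filter (−0.17), in a fit of the compared libraries only (−0.15) and without KO1 library 1 (−0.16) or 2 (−0.16), and its KO1 change without KO1 library 2 (−0.21). AC013489.3 over MRPS11 was the 1 row that rose in KO1, by 0.26 ± 0.06 (adjusted p = 0.0021), beside 0.09 ± 0.06 in KO2, and its 10 Mb bin was at 0.33 in KO1 and 0.40 in KO2. With those medians taken off it stood at −0.07 in KO1 and −0.31 in KO2, the second called. NCAPD2 over MRPL51 was the 1 that rose in KO2, by 0.31 ± 0.07 (adjusted p = 0.0012).

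GGA3 and MIF4GD both lie over MRPS7, on chromosome 17, and fell by 0.33 ± 0.07 and 0.23 ± 0.08 in KO1 and by 0.71 ± 0.07 and 0.57 ± 0.08 in KO2. AC087289.2, over MRPL38 in the same 10 Mb bin, fell by 0.55 ± 0.08 in KO2. The bin was at −0.23 in KO1 and −0.55 in KO2. With these medians taken off GGA3 stood at −0.10 and −0.16, and MIF4GD at 0.00 and −0.02, none called. MIF4GD is itself the row at the KO1 median of that bin, and AC087289.2 the row at its KO2 median. The KO1 call of MIF4GD also ended without KO1 library 1 (−0.20) or WT library 1 (−0.17), with upper-quartile factors (−0.16), by DESeq2 (−0.23) and with no filter (−0.23). SYVN1 over MRPL49 fell by 0.24 ± 0.07 in KO1 and 0.56 ± 0.07 in KO2. The KO1 change of SYVN1 was not called without KO1 library 1 (−0.18) or WT library 2 (−0.18), with upper-quartile factors (−0.16) or with the bin offset (−0.15).

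Between the lines, 11 of the 22 rows, over 9 MRP genes, were higher in KO1 than in KO2, where 10.1% of all rows were. At a mean of at least 50 reads it was 11 of 19 (57.9%, against 19.6%), and at a mean of at least 1000 reads 9 of 14 (64.3%, against 36.2%). None was lower by edgeR or by DESeq2, and 2 were at an unadjusted p under 0.05. Without KO1 library 1, and likewise without KO1 library 2, 1 row was lower. The largest difference was that of ABRAXAS1 over MRPS18C, at 0.56 ± 0.07 (adjusted p = 3.4e-08). ABRAXAS1 held 2334 and 2267 reads in KO1, 1697 and 1919 in KO2, and 2430 and 2415 in WT, so KO2 was the group that stood apart.

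**Figure D5:**
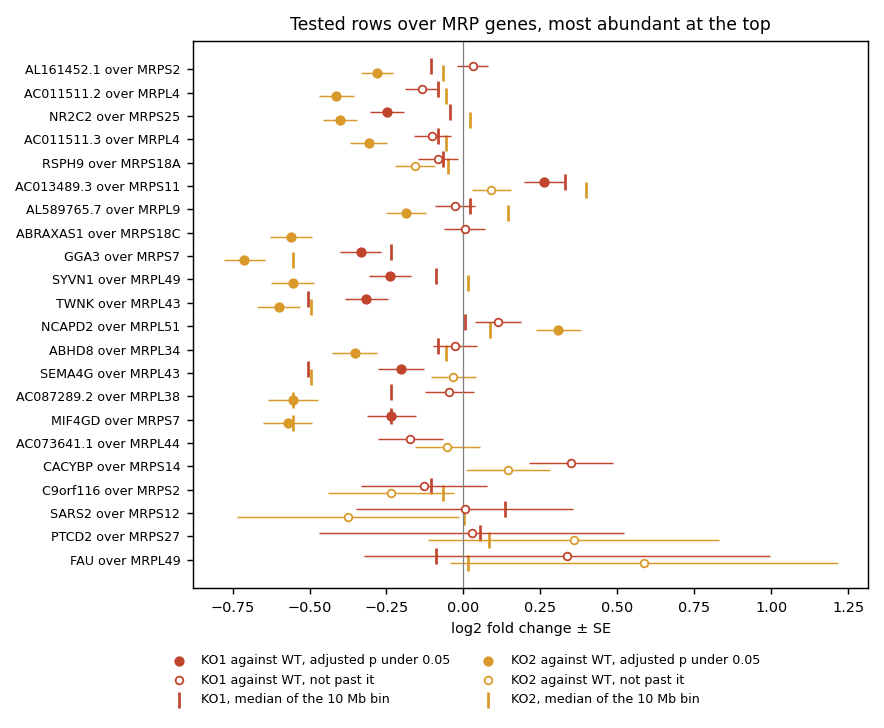
Log2 fold change ± SE of the 22 tested rows over MRP genes in KO1 (red) and KO2 (yellow) against WT, most abundant at the top, with filled points for a Benjamini-Hochberg adjusted p under 0.05 and a vertical tick for the median of the row's 10 Mb bin where it could be computed. In KO2, 12 points lie filled left of 0, and the ticks of the rows over MRPS7, MRPL38 and MRPL43 lie left of 0 as well.

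The sum over members gave a level for the family as these rows carry it. Summed CPM of the 56 rows was 1029 and 979.6 in KO1, 1067 and 1077 in KO2, and 1105 and 1119 in WT. Every knockout library lay below both WT libraries, by a log2 ratio of means of −0.15 in KO1 and −0.05 in KO2. The sum is weighted to abundant rows, of which the top 5 held 50.8% of the members' reads. Of the 45 tested rows, called or not, 24 had a positive log2 fold change in KO1 and 31 in KO2. With CPM by raw library total the KO2 value was 0.03, so its direction depended on the scaling. For the 35 large-subunit rows the ratios were −0.14 in KO1 and −0.15 in KO2, and for the 21 small-subunit rows −0.16 and 0.01. These ratios moved with the scaling. For the large subunit they were −0.06 in KO1 with upper-quartile factors and −0.07 in KO2 by raw total, and for the small subunit −0.08 in KO1 with upper-quartile factors and 0.09 in KO2 by raw total. No test of the sums was made, and an exact permutation test of 2 against 2 libraries cannot go below p = 0.333.

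Other genes of mitochondrial translation were counted from lists. Of 59 tested rows, 8 were called in KO1, 17 in KO2 and 7 in both lines, which is 13.6%, 28.8% and 11.9%, beside 23.6%, 29.0% and 13.5% of all rows. Without WT library 1 the KO1 count was 5, and the count in both lines was 4 without WT library 1 and 4 without WT library 2. Of the 46 rows with a bin median, 14 were called in KO2 without the bin offset and 9 with it. Among 5 ribosomal proteins with other names, DAP3, a GTP-binding protein of the small subunit, rose by 0.26 ± 0.08 in KO1 and 0.44 ± 0.08 in KO2. GADD45GIP1, a large-subunit protein, rose by 0.17 ± 0.06 and 0.24 ± 0.06. DAP3 lies over YY1AP1. The KO1 call of DAP3 ended without KO1 library 2 (0.16) or either WT library (0.28 and 0.23) and by DESeq2 (0.26). That of GADD45GIP1 in KO1 ended without KO1 library 2 (0.12), either KO2 library (0.17 and 0.16) or either WT library (0.21 and 0.12), with the replicate block (0.17) and in a fit of the compared libraries only (0.16), and that in KO2 without WT library 2 (0.20). With the bin offset GADD45GIP1 stood at 0.25 in KO1 and was called.

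Of 15 translation factor rows, 1 fell in KO1, and 2 rose and 4 fell in KO2. C12orf65, a release factor of stalled mitochondrial ribosomes that lies over MPHOSPH9, fell in both lines, by 0.34 ± 0.09 in KO1 and 0.52 ± 0.08 in KO2, and the KO1 call ended without WT library 1 (−0.29). Of 22 assembly and rRNA modification rows, 1 rose and 2 fell in KO1, and 1 rose and 5 fell in KO2. RCC1L, an exchange factor of mitoribosome assembly with no gene over its exons, fell by 0.93 ± 0.15 in KO1 and 0.80 ± 0.15 in KO2. MALSU1, an assembly factor of the large subunit that shares 1521 bases with IGF2BP3, fell by 0.31 ± 0.07 and 0.70 ± 0.07. With the bin offset the KO2 call of RCC1L ended (−0.23), while MALSU1 stood at −0.20 in KO2 and C12orf65 at −0.62 in KO1, both called.

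Of 17 synthetase rows, 2 rose in KO1, and 2 rose and 1 fell in KO2. GATC, a subunit of the glutaminyl-tRNA amidotransferase that shares 1729 bases with SRSF9, rose by 0.28 ± 0.05 in KO1 and 0.30 ± 0.05 in KO2, but neither was called once the bin medians were taken off (0.00 and 0.04).

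The authors' deposited table, which compares the 4 knockout libraries with WT, held 32 members. MRPL43 was the 1 of them with a q-value under 0.05, at a log2 fold change of −1.02 and q = 0.0023 in the authors' deposited table, where 9.88% of 11785 rows passed. In that table MRPS22 had a log2 fold change of −0.41 and MRPS34 of 0.12.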

How the data were processed

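Total RNA of 6 HEK293T libraries was analysed from a table of integer read counts, deposited unnormalized with 1 row a gene symbol. The submitters' processing notes name hg38, GRCh38.p6, limma, HTSeq 0.6.1p1, STAR 2.7.1a and Trim Galore. Which annotation and which strand setting were used in counting is not stated there. The authors also deposited FPKM values, used for levels per length, and log2 fold changes with p-values and q-values of 4 knockout against 2 WT libraries, quoted only as theirs. Groups were taken from the genotype labels.

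In R 4.3.3, counts were fitted by quasi-likelihood in edgeR 4.0.16 (F test, TMM, filterByExpr, 1 fit of 3 groups, no covariates), and the script was tested on simulated data. The biological coefficient of variation was 7.57%, with 3 residual and 31.9 prior degrees of freedom. Each SE was the absolute log2 fold change divided by the square root of F in that fit. Replicates differed by more than counting noise (chi-square per degree of freedom 4.13 in KO1, 2.30 in KO2 and 2.46 in WT). Rows were placed on GRCh38 with GENCODE 29 by symbol, 56195 directly and 244 through another symbol, and 2648 were not placed. Bin medians were taken over 10 Mb where 15 or more tested rows averaged 50 or more reads. Members and lists were chosen with earlier results of these data known. Values in every library were given for members called in both lines, up to 8 called in 1 line, the 8 highest by FPKM, and rows over MRP genes that were called in both lines or among the 8 most abundant. From each list up to 3 rows called in both lines were named, except 1 that is not reported here. Other rows over MRP genes were named after their values were seen, and the shares among rows with a mean count of 50 or 1000 or more were added after seeing the data. DESeq2 1.42.0, RLE or upper-quartile factors, 2 other filters, a replicate block, fits of the compared libraries, the bin offset and omission of each library served as alternatives.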

Additional observations from a re-analysis of the deposited data

Results flagged for a closer look

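In 5 MRP rows the change against WT differed between the knockout lines by a direct test of KO1 against KO2 in the edgeR quasi-likelihood fit, where 20.4% of all tested rows passed. On the log2 scale the difference (KO1 minus KO2) was 0.62 for MRPL40 and 0.79 for MRPS18C, both further down in KO2. It was −1.15 for MRPS22, which fell in KO1 alone, −0.34 for MRPS25, which rose in KO2 alone, and −0.72 for MRPS34, called lower in KO1 and higher in KO2. With 10 Mb bin medians taken off, MRPL40 stood at 0.03 and was not called, while MRPS22, MRPS25 and MRPS34 stayed called at −0.60, −0.28 and −0.73. The bin of MRPS18C held too few rows for that value.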

How the results depend on the processing

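Counts of MRP rows called moved by over 1.5 times as follows. For KO1 against WT, 1 higher became 2 with upper-quartile factors and 2 with the mean count filter, and 7 lower became 4 with upper-quartile factors, 4 by DESeq2 and 3 with the bin offset (4 to 7 without 1 library). For KO2 against WT, 5 higher became 3 by DESeq2 (3 to 5 without 1 library) and 5 lower became 1 with the bin offset (3 to 6). Between the lines, 2 higher in KO1 became 4 with upper-quartile factors and 1 with the bin offset, and 3 lower ranged from 3 to 5 without 1 library. In both lines, 1 higher became 2 with upper-quartile factors and the mean count filter and 0 by DESeq2 and with no filter (0 to 1 without 1 library), and 4 lower became 2 by DESeq2 and 1 with the bin offset (1 to 4). 

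For rows over MRP genes, 1 higher in KO1 became 2 with upper-quartile factors, the mean count filter, the bin offset and a minimum of 1 shared base (1 to 2 without 1 library). The 6 lower in KO1 became 3 with upper-quartile factors, 1 with the bin offset and 3 with a minimum of 300 shared bases. In KO2, 1 higher became 2 with the mean count filter, the bin offset and the 1-base minimum, and 12 lower became 5 with the 300-base minimum. Between the lines, 11 higher in KO1 became 5 with the 300-base minimum, and 0 lower became 2 with the mean count filter and 3 with the 1-base minimum (0 to 1 without 1 library). In both lines, 0 higher became 1 with the mean count filter, the bin offset and the 1-base minimum, and 5 lower became 3 with upper-quartile factors, 1 with the bin offset and 2 with the 300-base minimum (3 to 8 without 1 library). Of the other translation rows, 8 called in KO1 ranged from 5 to 8 without 1 library, 17 in KO2 became 11 by DESeq2 and 9 with the bin offset, 14 between the lines became 9 by DESeq2 and 3 with the bin offset (9 to 13), and 7 in both ranged from 4 to 7. The summed level moved to −0.071 in KO1 and −0.021 in KO2 with upper-quartile factors, and to 0.027 in KO2 by raw total. The causes were not tested.

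Rows without a bin median, 9 MRP rows, 3 rows over MRP genes and 13 other translation rows, were left out of the counts with the bin offset. Directions under the offset were checked only for the rows chosen by the naming rules, which leave out SEMA4G. The SEMA4G change of −0.20 in KO1 lay above its bin median of −0.50. Of the checked values called with or without the offset, directions turned for TWNK in KO1 (0.19), AC013489.3 in KO1 (−0.067) and KO2 (−0.31), and MALSU1 between the lines (−0.022). Of 29 values of named rows called neither with nor without it, 6 changed sign. The replicate numbers did not pair the libraries, with correlations of −0.03, −0.02 and −0.02. With the replicate block 7 MRP rows were lower and 1 higher in KO1, and 5 and 5 in KO2. Depth limits these results: 24 of the 45 tested members averaged under 50 reads.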
